A study of Mus musculus with 3 samples.

Results

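The genes described here encode the ligands, latency proteins, receptors, antagonists, SMADs and ID proteins of transforming growth factor beta (TGF-beta) and bone morphogenetic protein (BMP) signalling. They were chosen by gene name, and each of the 41 names matched a single row among the 22378 gene models listed. RNA sequencing gave their expression in mouse mammary cells of the FVB strain, in 3 pooled libraries, 1 for each group. The LCC (lung-colonizing cell) library held mammary cells given intravenously to FVB recipients and recovered by sorting from their lungs after 1 day. Each experiment gave cells of 8 female donors to 4 recipients in 2 injections of 2500000 cells, and the sort took cells carrying green fluorescent protein (from FVB.GFP donors) or the dye DDAO. The library pooled 15 experiments, 42 lungs and 455880 cells. The E-Int29-Hi library combined 3 samples of dissociated mammary cells gated by flow sorting on intermediate surface EpCAM with high CD29; the labels call this subset enriched in cells able to colonize lung. The MG library combined 3 samples of mammary gland that was not dissociated. Ages of the mice are not stated in the labels. The study set out to describe the LCC profile and how it departs from E-Int29-Hi and MG.

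TGF-beta ligands are secreted in a latent complex with LTBP proteins and, once released, bring together a type II and a type I receptor kinase. The receptors phosphorylate Smad2 and Smad3, or, for BMP ligands, Smad1, Smad5 and Smad9, which enter the nucleus with Smad4. Smad6, Smad7, the SMURF ubiquitin ligases and the co-repressors Ski and Skil limit the signal. The Id genes are well-known direct BMP targets and encode helix-loop-helix proteins that cannot bind DNA and that sequester other factors of this class. In the mammary gland TGF-beta is known to restrain ductal growth.

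Levels are FPKM, that is fragments counted per kilobase of transcript and per 1000000 mapped fragments, as the authors deposited them. A log2 change is the difference of log2(FPKM + 1) between a pair of libraries, which understates the change of low genes. A gene was counted where at least 1 library of the pair reached 1 FPKM, and a difference of 4-fold or 2-fold is meant on the log2(FPKM + 1) scale. With 1 library per group there was no replicate, so no difference below was tested, and the 3 comparisons share libraries. Of the 41 genes, 40 had the status OK in every library. Skil was marked FAIL in MG and is given as values only. The analysis covered 22077 gene names, of which LCC held 11298, E-Int29-Hi 11033 and MG 12024 at a level of at least 1 FPKM.

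Gene lists for cell types differed widely between the libraries, and their part in the differences below was not tested. The 9 basal markers (such as Krt14 and Acta2) summed to 680 FPKM in LCC, 7666 FPKM in E-Int29-Hi and 553 FPKM in MG. The 8 fibroblast markers summed to 1407 FPKM in LCC, 136 FPKM in E-Int29-Hi and 3048 FPKM in MG. Basal genes were thus highest in the gated cells, and fibroblast genes lowest there. The 9 luminal markers summed to 3931 FPKM in LCC, 296 FPKM in E-Int29-Hi and 2186 FPKM in MG, a sum carried by the keratins Krt8 and Krt18. The other 7 luminal markers were lower in LCC than in MG, 4 of them by 4-fold (Esr1, Pgr, Elf5 and Prlr), against 2.63% of all genes. The median log2 change of the 9 was -1.33. The 8 macrophage and monocyte markers summed to 489, 98.1 and 79.3 FPKM across LCC, E-Int29-Hi and MG. In LCC this sum was carried by Lyz2 and Ctss (232 and 162 FPKM), and Emr1 was nearly level with MG (2.42 against 2.38 FPKM). The median log2 change of the 8 in LCC was 1.80 over E-Int29-Hi and 1.57 over MG. The 8 lung epithelium markers, led by Scgb1a1, summed to 639.6 FPKM in LCC, 2.38 FPKM in E-Int29-Hi and 1.81 FPKM in MG. In LCC, 7 of these 8 stood at 1 FPKM or more, although the sort was for injected cells. The 6 adipocyte markers summed to 0.516, 1.30 and 10.8 FPKM across LCC, E-Int29-Hi and MG, and Plin1, Lep, Cfd and Retn were listed at 0 in LCC. Their sum was highest in MG, the library of undissociated gland, but low there too, with Cfd at 6.10 FPKM. In pools of this kind, fewer cells of a type and less RNA per cell cannot be told apart.

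Promoter sequence is shown for genes that stood at least 4-fold lower in LCC than in E-Int29-Hi, so that the genes sharing this pattern can be read side by side. They are Smad6 (chr9:64022010-64022309, minus strand), Id4 (chr13:48260866-48261165, plus strand), Ltbp3 (chr19:5740650-5740949, plus strand) and Smad1 (chr8:79399379-79399678, minus strand). Tgfbr3 and Bmp7 share the pattern but had no entry in the promoter set used, so no sequence is shown for them. Each stretch runs 5′ to 3′ on the gene's strand, from 250 bases before the start to 50 bases after it, from RefSeq on GRCm38.p6, whose table held 29 of the 41 genes. It is C57BL/6J sequence, not that of the FVB mice. Capitals mark matches to 3 motifs searched on both strands: GTCTAGAC, the SMAD-binding palindrome; CAGAC, the SMAD box; and GGCGCC, a GC-rich SMAD element. No match shown overlaps another.
Smad6: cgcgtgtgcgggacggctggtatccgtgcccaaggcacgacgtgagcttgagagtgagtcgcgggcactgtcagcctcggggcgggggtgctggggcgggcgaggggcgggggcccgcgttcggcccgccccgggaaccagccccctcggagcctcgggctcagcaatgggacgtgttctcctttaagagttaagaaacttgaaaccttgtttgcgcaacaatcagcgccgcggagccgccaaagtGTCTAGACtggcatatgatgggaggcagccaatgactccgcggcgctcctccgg
Id4: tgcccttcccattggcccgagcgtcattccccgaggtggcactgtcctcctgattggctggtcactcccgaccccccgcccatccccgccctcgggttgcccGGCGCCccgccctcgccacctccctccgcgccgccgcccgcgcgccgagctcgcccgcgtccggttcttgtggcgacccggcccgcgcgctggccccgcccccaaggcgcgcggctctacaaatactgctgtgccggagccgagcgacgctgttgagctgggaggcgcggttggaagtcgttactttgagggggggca
Ltbp3: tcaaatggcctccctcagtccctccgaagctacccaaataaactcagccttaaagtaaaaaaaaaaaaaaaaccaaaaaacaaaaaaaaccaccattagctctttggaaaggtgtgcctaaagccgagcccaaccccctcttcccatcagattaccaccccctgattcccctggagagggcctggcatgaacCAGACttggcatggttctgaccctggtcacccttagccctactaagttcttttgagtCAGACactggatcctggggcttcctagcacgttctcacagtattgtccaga
Smad1: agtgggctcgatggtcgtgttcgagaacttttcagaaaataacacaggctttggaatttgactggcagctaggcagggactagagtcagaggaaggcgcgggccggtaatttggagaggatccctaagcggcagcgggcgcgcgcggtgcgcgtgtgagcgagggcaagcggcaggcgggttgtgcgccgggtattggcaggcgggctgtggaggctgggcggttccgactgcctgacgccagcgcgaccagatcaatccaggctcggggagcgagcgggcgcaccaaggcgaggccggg
Of these 4 stretches, Smad6 held the palindrome GTCTAGAC, with its first base 4 bases before the start. It was the only gene to hold it among the 29 that matched, and 0.213% of 32851 promoter stretches of the same length did. The Id4 stretch held 1 GGCGCC, which 13 of the 29 genes and 11.9% of all stretches held. The Ltbp3 stretch held 2 copies of CAGAC, which 17 of the 29 genes and 49.6% of all stretches held. A gene was counted once whatever its number of stretches, so counts of genes and shares of stretches are not directly comparable. The Smad1 stretch held no match. These are matches of letters and say nothing of binding.

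Set against E-Int29-Hi, LCC had at least 4-fold lower levels of Bmp7, Id4, Tgfbr3, Ltbp3, Smad6 and Smad1, and of the genes counted Gdf15 alone stood at least 4-fold higher. Of the 41 genes, 33 were counted, so 6 were lower and 1 higher by 4-fold, where 4.35% of 12147 genes were lower and 4.64% higher. By 2-fold, 11 were lower and 8 higher, against 14.1% and 21.2% of all genes. The median log2 change was -0.47 for the 33 genes and 0.26 for all genes. With libraries scaled by median ratios, all genes had 447 higher and 685 lower against 564 and 528 as deposited, their median became 0.01, and Bmpr2 and Ski joined the genes at least 4-fold lower (log2 changes -2.09 and -2.03), giving 8. Smad6 missed 4-fold with a pseudocount of 5 (log2 change -1.56).

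Set against MG, LCC had an at least 4-fold higher level of Ltbp2, and no member stood 4-fold lower. Of 37 genes counted, that is 1 higher and 0 lower, where 1.33% of 12443 genes were higher and 2.63% lower. By 2-fold, Tgfb1, Tgfb2 and Ltbp2 were higher, and 10 genes were lower (Tgfbr3, Ltbp3, Ltbp4, Bmp4, Bmp6, Bmp7, Bmpr2, Smad6, Id1 and Id4), against 10.9% and 12.8% of all genes. The median log2 change was -0.43 for the 37 genes and 0.01 for all genes. Rescaled to TPM, 6 genes stood 4-fold lower (Tgfbr3, Ltbp4, Bmp6, Bmp7, Smad6 and Id1), while all genes had 157 higher and 919 lower against 166 and 327 as deposited, and their median became -0.41.

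Set against MG, E-Int29-Hi had higher levels of Ltbp2, Bmp7 and Id4 and lower levels of Gdf15, Ltbp1 and Tgfbi, each by at least 4-fold. Of 36 genes counted, that is 3 higher and 3 lower, where 2.6% of 12430 genes were higher and 3.97% lower. By 2-fold, 8 were higher and 5 lower, against 8.99% and 15.5% of all genes. The median log2 change was -0.13 for the 36 genes and -0.23 for all genes. Rescaled to TPM, all genes had 375 higher and 1011 lower against 323 and 494 as deposited. Tgfbi lay at the edge of 4-fold (log2 change -2.00) and missed it with median ratio scaling (-1.83) and with a pseudocount of 5 (-1.54), where Ltbp1 (-1.66) and Id4 (1.87) missed it too.

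**Figure D1:**
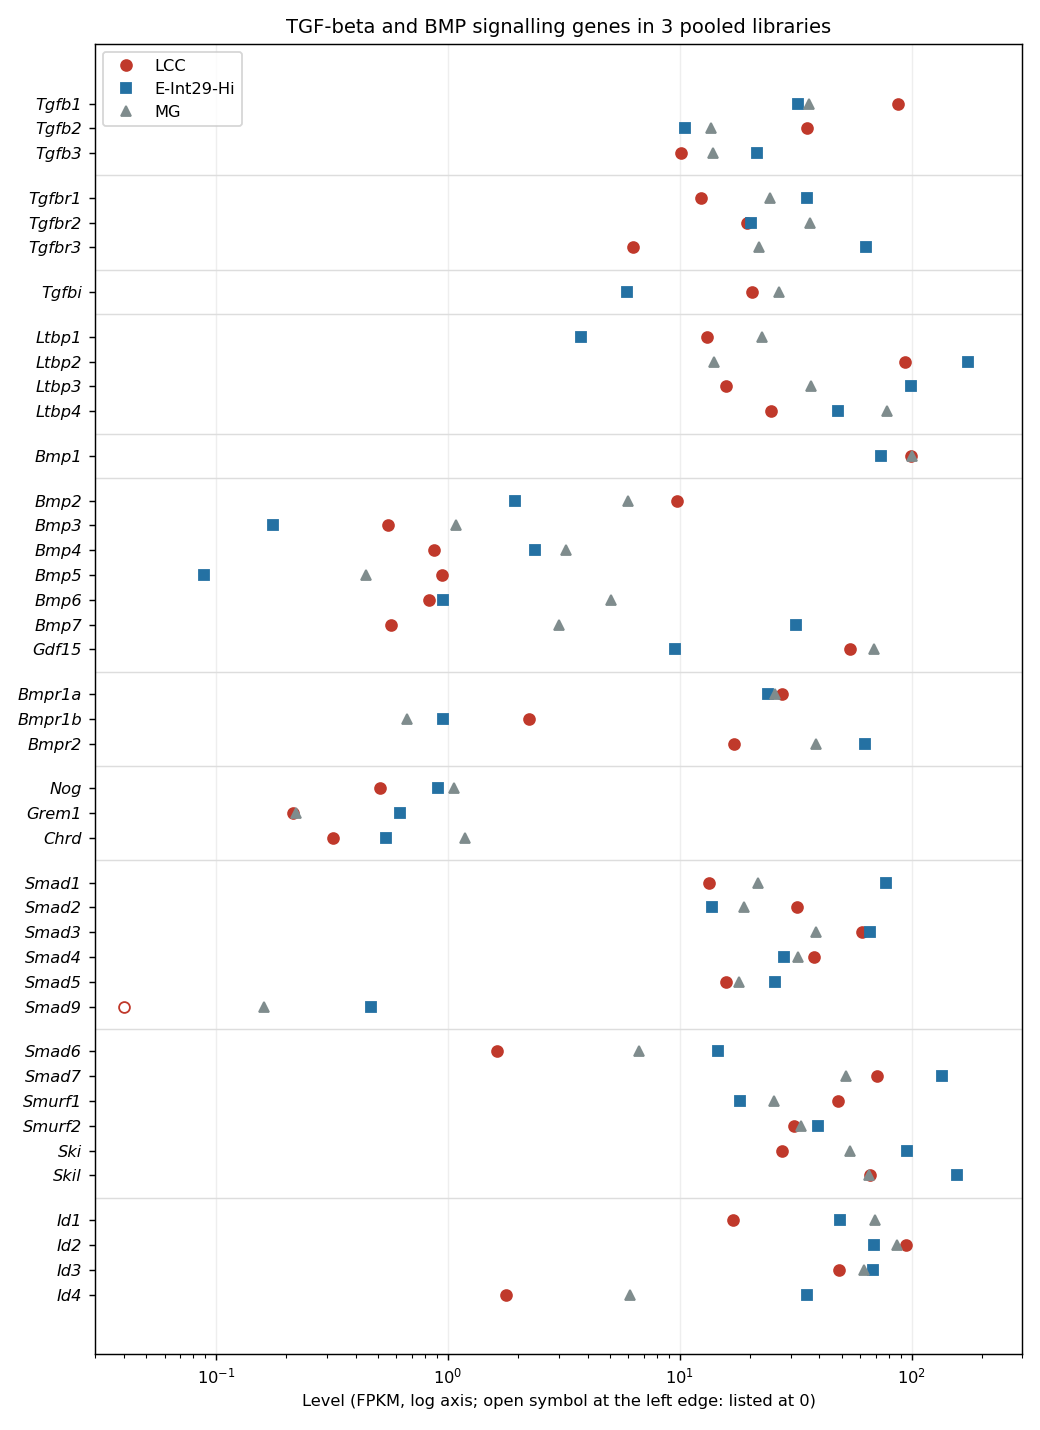
Level of each of the 41 genes (FPKM, log axis) for the LCC, E-Int29-Hi and MG libraries, 1 symbol per library, with genes grouped by role. Smad9 was listed at 0 in LCC (open symbol), Skil in MG had the status FAIL, and Bmp7 and Id4 show the widest gaps, at 0.568 and 1.77 FPKM in LCC against 31.6 and 35.4 FPKM in E-Int29-Hi.

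**Figure D2:**
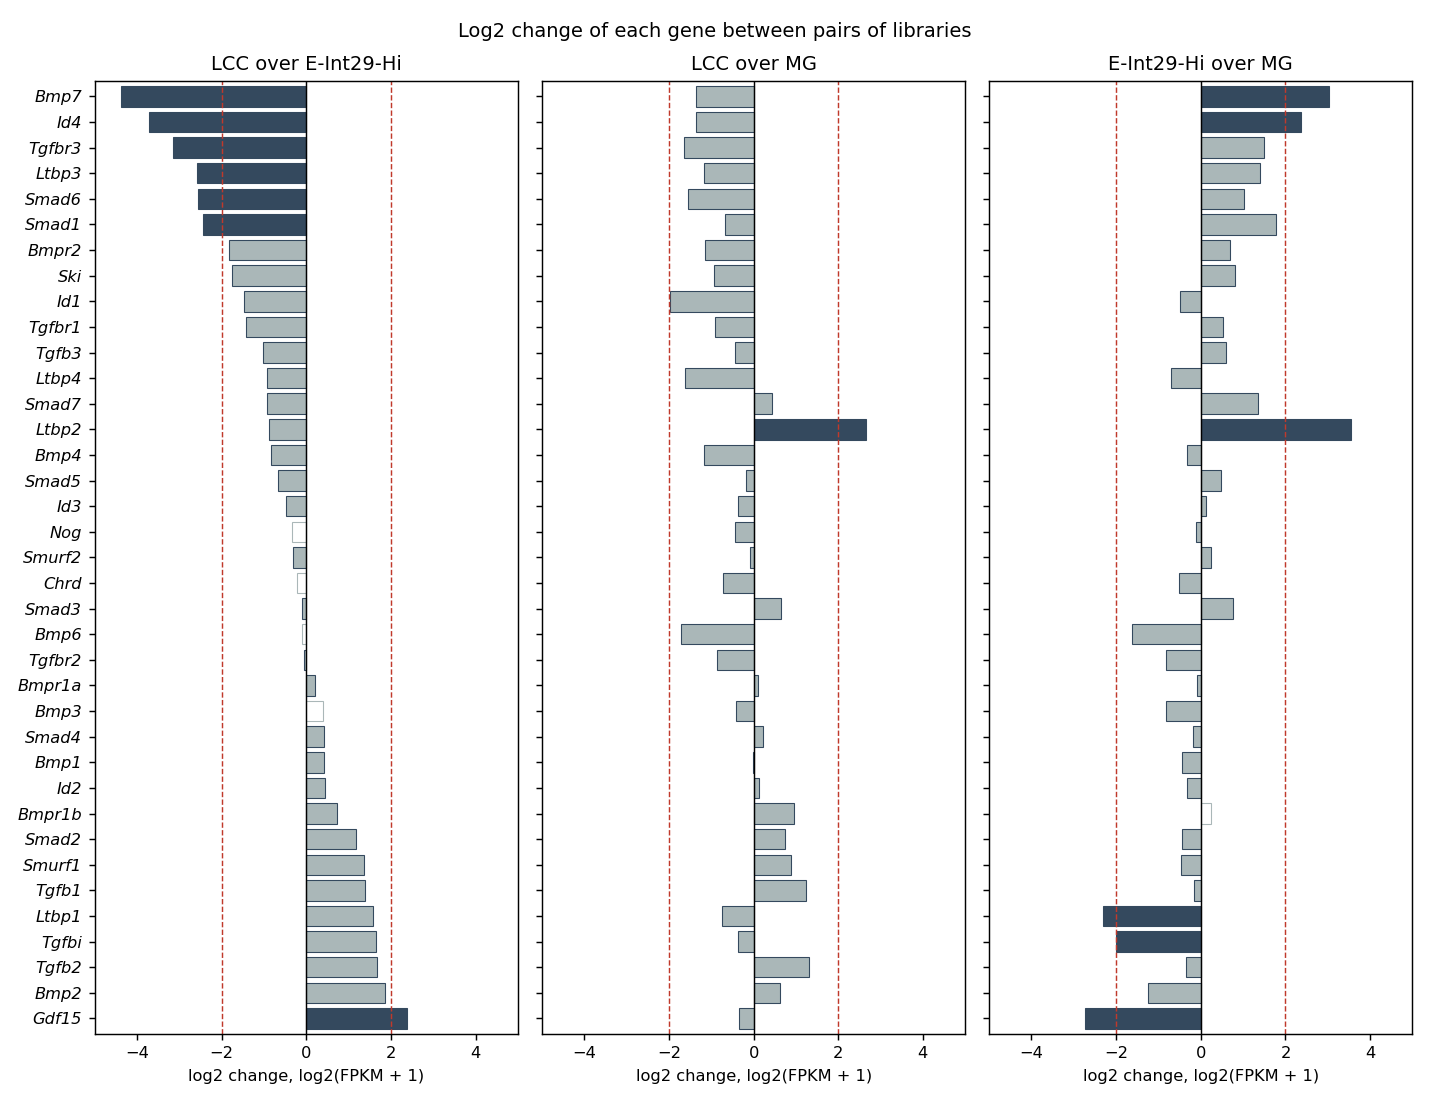
Log2 change on the log2(FPKM + 1) scale for the 37 genes that reached 1 FPKM in some library, ordered by the change of LCC over E-Int29-Hi. Dark bars pass the dashed 4-fold lines, and open bars are genes under 1 FPKM in both libraries of the pair, which were not counted. Bmp7, Id4, Tgfbr3, Ltbp3, Smad6 and Smad1 extend left past the line in the first panel.

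The order of the 3 libraries was counted for these genes and for all genes, without a test. E-Int29-Hi was highest for 16 (43.2%) of the 37 genes that reached 1 FPKM in some library. LCC was highest for 9 (24.3%) and MG for 12 (32.4%). LCC was lowest for 20 (54.1%), E-Int29-Hi for 13 (35.1%) and MG for 4 (10.8%). Among 12772 genes, E-Int29-Hi was highest for 25.2%, LCC for 41.6% and MG for 33.2%. Of these, LCC was lowest for 32.1%, E-Int29-Hi for 47.5% and MG for 20.4%. With median ratio scaling, E-Int29-Hi was highest for 33.4% and LCC lowest for 38.5% of all genes. The shares of the 37 genes were then 45.9% and 54.1%. With TPM, MG was highest for 16 of the 37 genes (43.2%), E-Int29-Hi for 15 and LCC for 6. Among all genes with TPM, MG was highest for 47.6%, E-Int29-Hi for 23.8% and LCC for 28.6%. LCC was then lowest for 54.1% of the 37 genes and 41.5% of all genes. The median range across the libraries was 1.40 on the log2 scale for these genes and 0.97 for all genes. The members nearest to the same level in all 3 libraries were Bmpr1a, with a range of 0.20, and Smurf2, with 0.33.

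Tgfb1 and Tgfb2 were higher in LCC than in both other libraries, and Tgfb3 was lower. Tgfb1, the most widely made isoform, stood at 86.9 FPKM in LCC, 32.4 FPKM in E-Int29-Hi and 36.0 FPKM in MG. Tgfb2 stood at 35.2 FPKM in LCC, 10.5 FPKM in E-Int29-Hi and 13.6 FPKM in MG. LCC thus stood apart for both, while E-Int29-Hi and MG lay close together. The log2 change of Tgfb1 was 1.40 over E-Int29-Hi and 1.25 over MG, and that of Tgfb2 was 1.66 and 1.31. Tgfb3 had the reverse order, at 10.1 FPKM in LCC, 21.5 FPKM in E-Int29-Hi and 14.0 FPKM in MG. Summed, the 3 ligands stood at 132 FPKM in LCC, 64.4 FPKM in E-Int29-Hi and 63.6 FPKM in MG, and Tgfb3 made up 7.64%, 33.4% and 21.9% of the sum. Macrophages and platelets are known sources of Tgfb1. The summed level of macrophage markers was higher in LCC (above). The 6 platelet markers summed to 9.55 FPKM in LCC, 11.1 FPKM in E-Int29-Hi and 9.79 FPKM in MG, with Gp6 listed at 0 in LCC and E-Int29-Hi, but they differed in direction. Ppbp stood at 3.73 FPKM in LCC, 0.105 FPKM in E-Int29-Hi and 0.699 FPKM in MG, and Itga2b at 0.857, 4.42 and 1.41 FPKM across LCC, E-Int29-Hi and MG. The part of either cell type in the Tgfb1 level was not tested.

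The latency proteins split by gene. Ltbp2, which lies on fibrillin fibres and does not bind latent TGF-beta, was high in both sorted cell libraries, at 93.4 FPKM in LCC, 174 FPKM in E-Int29-Hi and 14.0 FPKM in MG. Its log2 change over MG was 2.66 in LCC and 3.55 in E-Int29-Hi. Ltbp3, which does bind latent TGF-beta, stood at 15.8 FPKM in LCC, 99.4 FPKM in E-Int29-Hi and 36.8 FPKM in MG, so LCC was the lowest (log2 change -2.58 against E-Int29-Hi). Ltbp1, a major latent TGF-beta carrier, was lowest in E-Int29-Hi, at 13.1 FPKM in LCC, 3.75 FPKM in E-Int29-Hi and 22.6 FPKM in MG. The low library for Ltbp1 was also the low one for the fibroblast markers, whose part was not tested. Ltbp4 was lowest in LCC, at 24.8 FPKM, against 48.1 FPKM in E-Int29-Hi and 78.4 FPKM in MG. In MG, Ltbp4 made up 51.7% of the summed LTBP level, and in LCC and E-Int29-Hi Ltbp2 made up 63.5% and 53.5%.

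Tgfbi, a secreted matrix protein named for its induction by TGF-beta, stood at 20.5 FPKM in LCC, 5.91 FPKM in E-Int29-Hi and 26.7 FPKM in MG. It was low in the gated cells alone, as Ltbp1 was. Bmp1, a protease that trims procollagens and chordin and is no BMP ligand, stood at 99.0, 73.4 and 100.1 FPKM across LCC, E-Int29-Hi and MG, with no gap of 2-fold between any pair.

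Among TGF-beta receptors, Tgfbr3 and Tgfbr1 were lowest in LCC, and Tgfbr2 was highest in MG. Tgfbr3, which encodes the co-receptor betaglycan, stood at 6.29 FPKM in LCC, 63.5 FPKM in E-Int29-Hi and 21.9 FPKM in MG. Its log2 change in LCC was -3.15 against E-Int29-Hi and -1.65 against MG, and LCC lay below both. Tgfbr1, the type I kinase, stood at 12.4 FPKM in LCC, 35.3 FPKM in E-Int29-Hi and 24.4 FPKM in MG, the same order at a smaller size (log2 change -1.44 against E-Int29-Hi). Tgfbr2, the type II kinase, stood at 19.4 FPKM in LCC, 20.3 FPKM in E-Int29-Hi and 36.3 FPKM in MG, so the sorted libraries were level and MG was higher. Betaglycan made up 16.5% of the summed receptor level in LCC, against 53.4% in E-Int29-Hi and 26.5% in MG.

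BMP ligand genes were low in most cases, but a different ligand led each sorted library. Bmp7, a ligand of epithelial and mesenchymal development, stood at 0.568 FPKM in LCC, 31.6 FPKM in E-Int29-Hi and 3.02 FPKM in MG. This was the widest range of the 37 genes (4.38 on the log2 scale). Bmp2, a ligand that acts on many tissues, stood at 9.72 FPKM in LCC, 1.95 FPKM in E-Int29-Hi and 5.98 FPKM in MG, and with a pseudocount of 0.1 it passed 4-fold in LCC over E-Int29-Hi (log2 change 2.26). Bmp2 made up 72.1% of the summed level of the 6 BMP ligands in LCC, against 5.24% in E-Int29-Hi and 31.8% in MG, whereas Bmp7 made up 4.21%, 85.1% and 16.1%. Bmp6 was highest in MG, at 0.831 FPKM in LCC, 0.952 FPKM in E-Int29-Hi and 5.03 FPKM in MG. Bmp4 stood at 0.874, 2.36 and 3.23 FPKM, while Bmp3 (0.552, 0.176 and 1.09 FPKM) and Bmp5 (0.943, 0.0892 and 0.441 FPKM) stayed near or under 1 FPKM across LCC, E-Int29-Hi and MG.

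Gdf15, a stress-induced and distant relative of these ligands, was low in the gated cells alone. It stood at 54.0 FPKM in LCC, 9.54 FPKM in E-Int29-Hi and 68.6 FPKM in MG. Its log2 change was 2.38 for LCC over E-Int29-Hi, -0.34 for LCC over MG and -2.72 for E-Int29-Hi over MG.

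Among BMP receptors, Bmpr1a, a type I kinase, stood at 27.6 FPKM in LCC, 23.9 FPKM in E-Int29-Hi and 25.7 FPKM in MG, nearly level, and its small differences turned sign with scaling. Bmpr2, the type II kinase, stood at 17.1 FPKM in LCC, 62.9 FPKM in E-Int29-Hi and 38.8 FPKM in MG. The order of Bmpr2 was that of Tgfbr1 and Tgfbr3. Bmpr1b, the other type I kinase listed, was scarce at 2.23 FPKM in LCC, 0.955 FPKM in E-Int29-Hi and 0.663 FPKM in MG. The secreted antagonists, which bind BMPs outside the cell, were also scarce. Nog stood at 0.511, 0.906 and 1.06 FPKM across LCC, E-Int29-Hi and MG, Grem1 at 0.215, 0.621 and 0.221 FPKM, and Chrd at 0.321, 0.542 and 1.19 FPKM. No difference is read from values this low.

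The SMADs of the BMP branch were lower in LCC relative to those of the TGF-beta branch. Smad1 stood at 13.3 FPKM in LCC, 77.2 FPKM in E-Int29-Hi and 21.7 FPKM in MG (log2 change -2.45 in LCC against E-Int29-Hi). Smad5 stood at 15.8 FPKM in LCC, 25.6 FPKM in E-Int29-Hi and 18.0 FPKM in MG, and Smad9 was listed at 0 in LCC and stood at 0.468 and 0.162 FPKM in E-Int29-Hi and MG. E-Int29-Hi was thus the high library on this branch, mainly through Smad1. Smad2 was highest in LCC, at 31.9 FPKM, against 13.7 FPKM in E-Int29-Hi and 18.8 FPKM in MG, and Smad3 stood at 60.8 FPKM in LCC, 65.9 FPKM in E-Int29-Hi and 38.6 FPKM in MG. The summed BMP-branch level was 0.313 times the TGF-beta-branch level in LCC, against 1.30 times in E-Int29-Hi and 0.694 times in MG, a ratio within each library that does not depend on its scaling. Smad4, the partner of both branches, stood at 37.7, 28.2 and 32.2 FPKM across LCC, E-Int29-Hi and MG, within 2-fold in every pair, and its direction against MG turned in LCC with TPM and in E-Int29-Hi with median ratios.

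**Figure D3:**
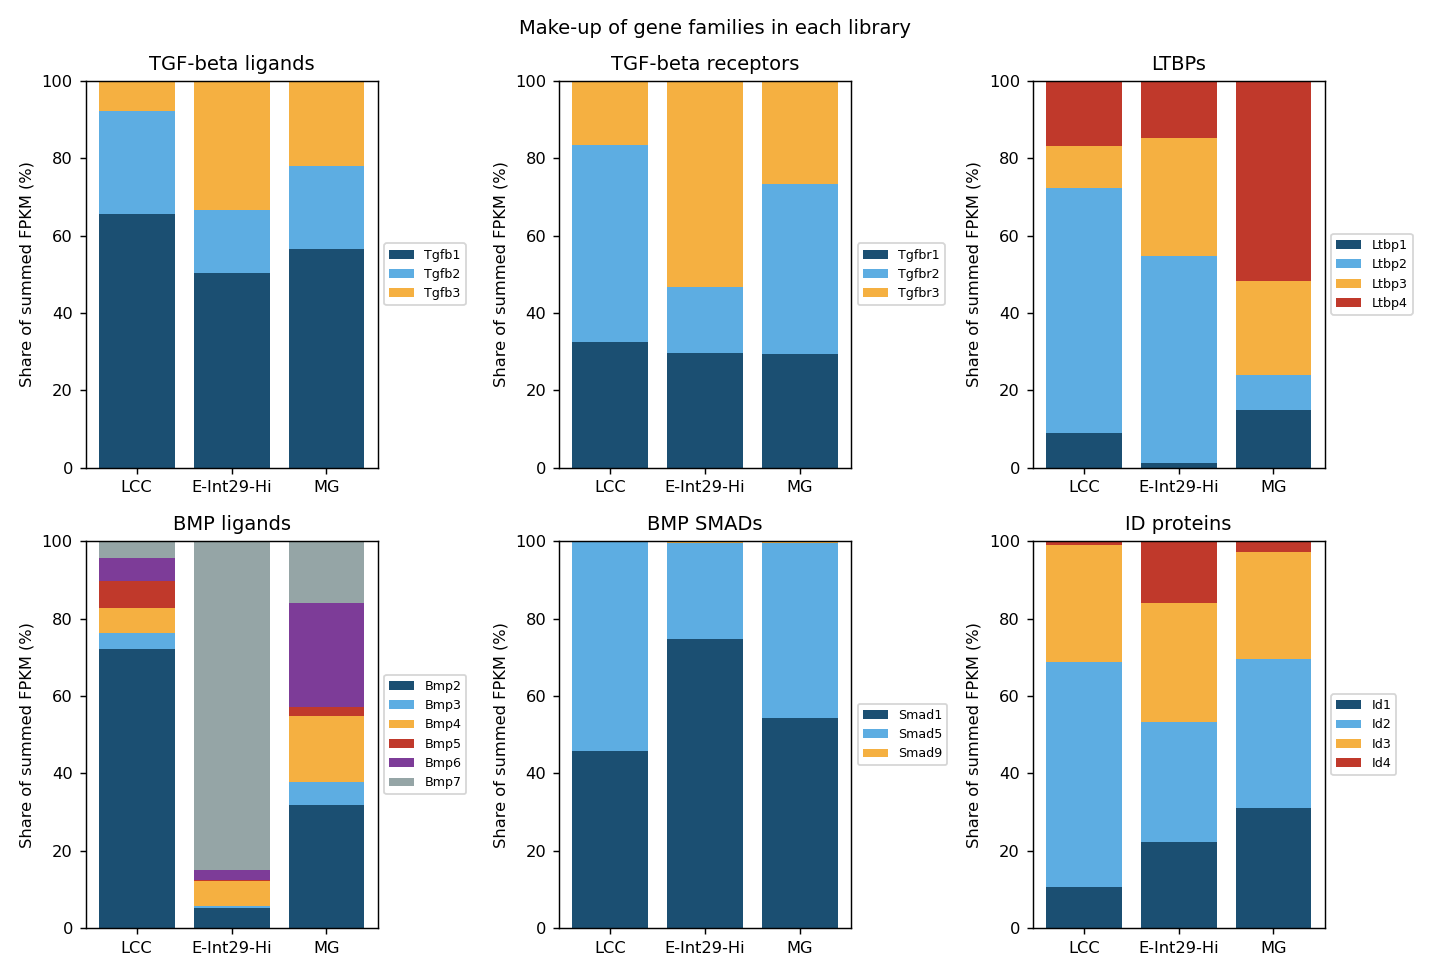
Make-up of 6 gene families in LCC, E-Int29-Hi and MG: each bar is the family's summed FPKM set to 100%, split by gene. Bmp7 fills 85.1% of the BMP ligand bar in E-Int29-Hi and 4.21% in LCC, and Id4 fills 16.0% and 1.10% of the ID bar.

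The inhibitors of the pathway differed in order across the libraries. Smad6, which preferentially blocks BMP receptors and SMADs, stood at 1.63 FPKM in LCC, 14.6 FPKM in E-Int29-Hi and 6.64 FPKM in MG. Smad7, which blocks both branches, was abundant at 70.7 FPKM in LCC, 135 FPKM in E-Int29-Hi and 52.3 FPKM in MG. Both were highest in E-Int29-Hi, but LCC was the lowest library for Smad6 and the middle one for Smad7. The level of Smad7 was 43.4 times that of Smad6 in LCC, 9.30 times in E-Int29-Hi and 7.87 times in MG. Smurf1, a ubiquitin ligase for SMADs and receptors, stood at 48.0 FPKM in LCC, 18.1 FPKM in E-Int29-Hi and 25.5 FPKM in MG, highest in LCC as Tgfb1, Tgfb2 and Smad2 were. Smurf2 stood at 31.2, 39.3 and 33.2 FPKM across LCC, E-Int29-Hi and MG. The co-repressor Ski stood at 27.5 FPKM in LCC, 95.2 FPKM in E-Int29-Hi and 53.9 FPKM in MG, and its relative Skil at 66.2, 157 and 65.2 FPKM across LCC, E-Int29-Hi and MG, the MG value being the doubtful one.

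The 4 Id genes differed from each other. Id4, which is known from basal cells of the mammary epithelium, stood at 1.77 FPKM in LCC, 35.4 FPKM in E-Int29-Hi and 6.08 FPKM in MG, with a log2 change of -3.71 for LCC over E-Int29-Hi and of 2.36 for E-Int29-Hi over MG. Id1 was lowest in LCC, at 17.0 FPKM, against 49.2 FPKM in E-Int29-Hi and 69.5 FPKM in MG. Its log2 change against MG was -1.97, just short of 4-fold, and passed it with a pseudocount of 0.1 (-2.02), with median ratio scaling (-2.05) and with TPM (-2.38). Id2 and Id3 were high and closer to level. Id2 stood at 94.1 FPKM in LCC, 68.8 FPKM in E-Int29-Hi and 86.6 FPKM in MG, and Id3 at 48.5, 67.7 and 62.5 FPKM across LCC, E-Int29-Hi and MG. Id2 made up 58.3% of the summed Id level in LCC, against 31.1% in E-Int29-Hi and 38.5% in MG.

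The basal markers moved with Bmp7, Id4, Tgfbr3, Ltbp3, Smad1 and Smad6 between E-Int29-Hi and LCC. All 9 basal markers stood at least 4-fold lower in LCC, against 4.35% of all genes, with a median log2 change of -3.66. Between E-Int29-Hi and MG, Bmp7 and Id4 were also at least 4-fold higher in E-Int29-Hi. Tgfbr3, Ltbp3, Smad1 and Smad6 were higher there by at least 2-fold (log2 changes 1.49, 1.41, 1.79 and 1.03). There, 6 of the 9 basal markers stood at least 4-fold higher, against 2.6% of all genes, with a median of 3.01. Between LCC and MG the basal markers split. The keratins Krt5, Krt14 and Krt17 were higher in LCC (log2 changes 0.60, 1.01 and 1.59). The other 6 were lower, 2 of them by 4-fold, against 2.63% of all genes, and the median of the 9 was -1.05. Bmp7, Id4, Tgfbr3, Ltbp3, Smad1 and Smad6 were all lower in LCC than in MG (log2 changes -1.36, -1.35, -1.65, -1.17, -0.67 and -1.54). The part of basal cell content in these differences was not tested.

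Other genes of the pathway came from fixed lists. Of 13 genes of the latent complex and its activation, 11 were counted in each comparison (Itgav had no OK status in every library). LCC over E-Int29-Hi had 3 higher by 4-fold and 1 lower (median log2 change -0.21), against 4.64% and 4.35% of all genes. LCC over MG had 0 higher and 1 lower (median -0.00033), against 1.33% and 2.63% of all genes. E-Int29-Hi over MG had 0 higher and 2 lower (median -0.95), against 2.6% and 3.97% of all genes. In this and the other short lists, counts of 0 or 1 are not read as a trait of the list. Itgb6, a subunit of the integrin that activates latent TGF-beta on epithelium, stood at 10.9 FPKM in LCC against 0.680 FPKM in E-Int29-Hi, and 5.63 FPKM in MG. Lrrc32, which holds latent TGF-beta on the cell surface, stood at 70.9 FPKM in LCC, 13.3 FPKM in E-Int29-Hi and 84.7 FPKM in MG. Emilin1, a matrix protein that holds back TGF-beta processing, stood at 11.9, 1.26 and 11.9 FPKM across LCC, E-Int29-Hi and MG. These genes shared the low level in the gated cells seen for Tgfbi and Ltbp1. Fbn2, a fibrillin named after its values were seen, was the lower gene, at 0.465 FPKM in LCC and 5.93 FPKM in E-Int29-Hi. Pcsk6, a proprotein convertase named likewise, was the gene lower in LCC than in MG, at 1.12 FPKM against 8.72 FPKM. The most abundant genes of the list were Thbs1, an activator of latent TGF-beta, at 562, 1338 and 449 FPKM, and Fbn1, the main fibrillin, at 117.0, 35.0 and 74.6 FPKM across LCC, E-Int29-Hi and MG.

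Several antagonists outside the 41 genes stood well above Nog, Grem1 and Chrd. Of 14, 8 were counted for LCC over E-Int29-Hi (median log2 change 0.77). Of these, 0 were higher and 1 lower by 4-fold, against 4.64% and 4.35% of all genes. LCC over MG had 0 higher and 2 lower of 10 counted (median -0.91), against 1.33% and 2.63% of all genes. E-Int29-Hi over MG had 0 higher and 3 lower of 10 counted (median -0.83), against 2.6% and 3.97% of all genes. The 3 were Chrdl1, Bmper and Dcn. Crim1, a membrane protein that binds BMPs, was lower in LCC than in both others, at 6.92, 31.7 and 37.2 FPKM across LCC, E-Int29-Hi and MG. Chrdl1, a chordin relative named after its values were seen, was the other lower gene against MG, at 0.666 FPKM in LCC and 8.36 FPKM in MG. Dcn, a proteoglycan that binds TGF-beta and a fibroblast marker, stood at 206, 62.7 and 493 FPKM, and Fstl1, a secreted BMP-binding glycoprotein, at 163, 64.2 and 139 FPKM across LCC, E-Int29-Hi and MG.

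Of 8 further receptors and co-receptors, 7 were counted in each comparison. For LCC over E-Int29-Hi, 1 was higher by 4-fold (Cd109) and 0 lower (median log2 change 0.57), against 4.64% and 4.35% of all genes. For LCC over MG, 1 was higher (Cd109) and 1 lower (Eng) (median -0.42), against 1.33% and 2.63% of all genes. For E-Int29-Hi over MG, 0 were higher and 1 lower (Acvrl1) (median -0.52), against 2.6% and 3.97% of all genes. Cd109, a surface protein that binds TGF-beta and limits its signal, stood at 28.9 FPKM in LCC, 2.79 FPKM in E-Int29-Hi and 4.43 FPKM in MG. Eng, the endothelial co-receptor endoglin, stood at 28.2, 45.1 and 120.9 FPKM, and Acvrl1, an endothelial type I kinase, at 13.6, 7.78 and 34.5 FPKM across LCC, E-Int29-Hi and MG. Both were highest in MG, as were the 8 endothelial markers, which summed to 128, 111 and 565 FPKM across LCC, E-Int29-Hi and MG. The part of endothelial cells was not tested. Acvr1, a BMP type I kinase, stood at 38.3, 109 and 35.7 FPKM across LCC, E-Int29-Hi and MG, highest in E-Int29-Hi as Bmpr2 was. Of 18 other family ligands, 2 were counted for LCC over E-Int29-Hi and 3 for each comparison with MG. Gdf10, a BMP3 relative, was the 1 gene past 4-fold, at 1.66 FPKM in LCC, 1.69 FPKM in E-Int29-Hi and 11.9 FPKM in MG. It was 4-fold lower than MG in LCC, as were 2.63% of all genes, and in E-Int29-Hi, as were 3.97%. Gdf11, a relative of myostatin, stood at 0.940 FPKM in LCC, 3.62 FPKM in E-Int29-Hi and 3.00 FPKM in MG.

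Known TGF-beta targets differed in both directions. Of 15, LCC over E-Int29-Hi had 4 higher and 2 lower by 4-fold (median log2 change 0.31), against 4.64% and 4.35% of all genes. LCC over MG had 0 higher and 1 lower (median -0.49), against 1.33% and 2.63% of all genes. E-Int29-Hi over MG had 2 higher and 4 lower, with 14 counted (median -0.53), against 2.6% and 3.97% of all genes. Ctgf, a matricellular protein, stood at 49.0 FPKM in LCC, 1234 FPKM in E-Int29-Hi and 122 FPKM in MG, and Tagln, a contractile cell protein, at 34.5, 744 and 62.0 FPKM across LCC, E-Int29-Hi and MG. Col1a1, Col1a2, Fn1 and Lox, which encode matrix proteins and a collagen cross-linker, were lowest in E-Int29-Hi, with Lox at 50.5, 1.70 and 29.8 FPKM and Fn1 at 138, 15.2 and 271 FPKM across LCC, E-Int29-Hi and MG. Postn, a matricellular protein, stood at 282 FPKM in LCC, 652 FPKM in E-Int29-Hi and 446 FPKM in MG. Ctgf and Tagln were highest where the basal markers were, and Col1a1, Col1a2, Fn1 and Lox lowest where the fibroblast markers were. Col1a1 and Col1a2 are themselves fibroblast markers, and this was not tested further. Fbln5, an elastic fibre protein, was the gene lower in LCC than in MG, at 1.29 against 13.3 FPKM.

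Of 14 BMP targets outside the Id genes, 11 were counted for LCC over E-Int29-Hi (median log2 change -0.30). Of these, 0 were higher and 1 lower by 4-fold, against 4.64% and 4.35% of all genes. LCC over MG had 0 higher and 1 lower of 12 counted (median -0.66), against 1.33% and 2.63% of all genes. E-Int29-Hi over MG also had 0 higher and 1 lower of 12 counted (median -0.46), against 2.6% and 3.97% of all genes. The lower genes, named after their values were seen, were Tbx2, a T-box factor, at 1.16 FPKM in LCC against 8.40 FPKM in E-Int29-Hi, and Msx2, a homeobox factor, at 0.355 FPKM in LCC, 0.159 FPKM in E-Int29-Hi and 7.79 FPKM in MG. The most abundant were Hes1 at 51.3, 30.1 and 42.5 FPKM and Gata3, a luminal transcription factor, at 17.5, 47.2 and 20.7 FPKM across LCC, E-Int29-Hi and MG.

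**Figure D4:**
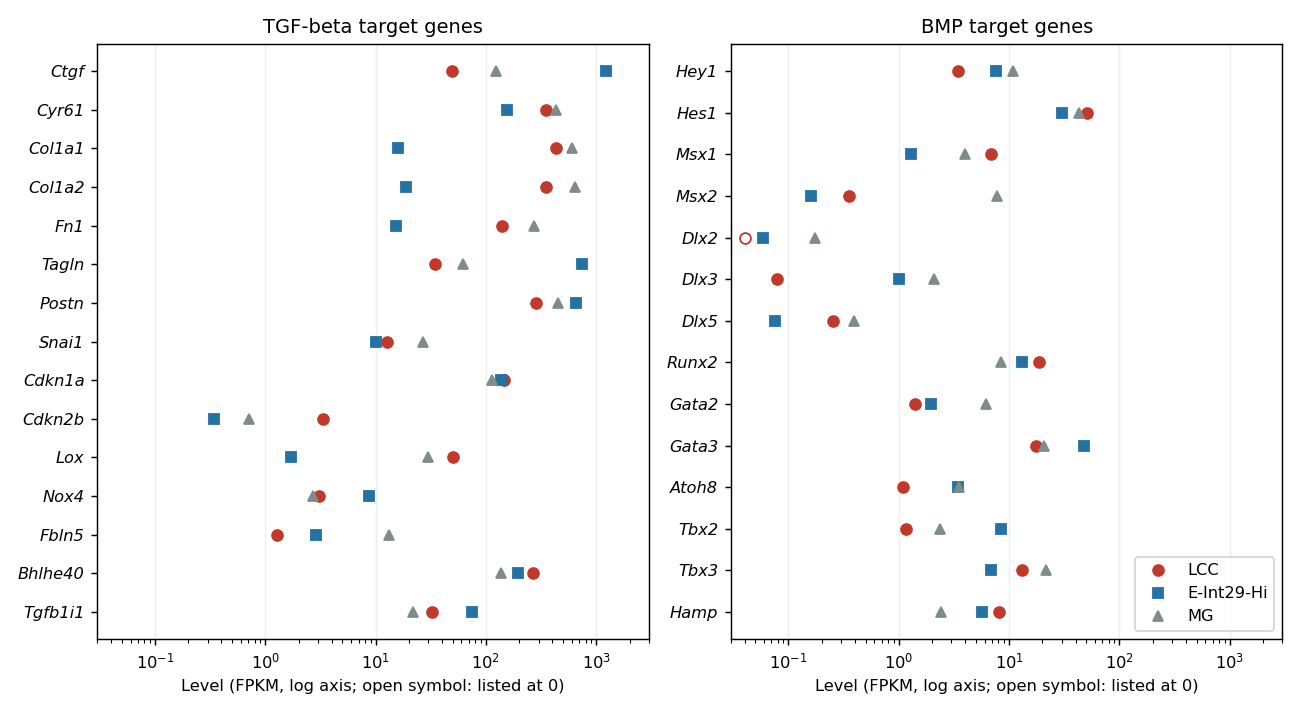
Levels (FPKM, log axis) of 15 TGF-beta target genes (left) and 14 BMP target genes (right) in LCC, E-Int29-Hi and MG, 1 symbol per library. Ctgf and Tagln are highest in E-Int29-Hi (1234 and 744 FPKM), and Col1a1, Col1a2, Fn1 and Lox are lowest in E-Int29-Hi.

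Of 20 intracellular regulators outside the 41 genes, 19 were counted in each comparison. LCC over E-Int29-Hi had 0 higher and 0 lower by 4-fold, where 4.64% of all genes were higher and 4.35% lower, and a median log2 change of -0.01. LCC over MG also had 0 higher and 0 lower, where 1.33% of all genes were higher and 2.63% lower, and a median of -0.05. With so few genes in the list, counts of 0 lie near these shares, and nothing is read from them. E-Int29-Hi over MG had 1 higher and 0 lower, where 2.6% of all genes were higher and 3.97% lower. The higher gene was Pmepa1, a TGF-beta-induced inhibitor of SMAD activation, at 211 FPKM in LCC, 786 FPKM in E-Int29-Hi and 105 FPKM in MG. Tgif1, a SMAD co-repressor, was also abundant, at 219, 235 and 133 FPKM across LCC, E-Int29-Hi and MG.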

How the data were processed

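Poly(A) RNA was captured with poly-T beads and sequenced on an Illumina HiSeq instrument, per the labels' protocols. Each of the 3 tables the authors deposited lists genes with their FPKM and an estimation status. The submitters' processing notes name TopHat 1.4.1, Cufflinks 1.3.0 and mm9, not what each was used for. Coordinates are given only for promoter sequences, on GRCm38.p6.

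The analysis kept the 22188 gene models whose status was OK throughout, and the model with the highest summed FPKM was kept for each name. Genes were counted at 1 FPKM or more in either library, with a pseudocount of 1. Read numbers were not given. Low values, between 0.005 and 0.1 FPKM, had a commonest ratio of 1.12 for LCC over E-Int29-Hi and 1.17 for LCC over MG. Few genes share these ratios (14 of 357 and 17 of 298). For E-Int29-Hi over MG the commonest ratio was 1.05, shared by 120 of 1083 genes. Depth is taken as unknown, and no counting interval is given. A listed 0 may reflect an estimate that failed, although each 0 given here carried the status OK.

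The members and lists were chosen with earlier results of these data known. Some genes of the antagonist and TGF-beta target lists are not reported here and are left out of the counts and medians of those lists. All 41 members were named. For the pathway lists, genes at least 4-fold apart at 10 FPKM or more and the 2 most abundant of each list were described. The cell type lists are given mainly as sums, and most of their genes past that limit are not named. A list of 6 pericyte markers is not described. The log2 change and the 4-fold call were tested on a simulated pair of libraries, and the other steps were not. Alternatives were a pseudocount of 0.1 or 5, no filter or one at 5 FPKM, median ratio scaling (divisors 1.08 for LCC, 0.892 for E-Int29-Hi and 1.02 for MG), TPM, summed models, and every status. Python 3.11.15, numpy 2.4.6, pandas 2.3.3 and matplotlib 3.10.9 were used.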

Additional observations from a re-analysis of the deposited data

How the results depend on the processing

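With a pseudocount of 0.1, LCC over E-Int29-Hi had 2 of the genes 4-fold higher instead of 1, LCC over MG had 3 lower instead of 0, and E-Int29-Hi over MG had 5 lower instead of 3. With a pseudocount of 5, E-Int29-Hi over MG had 1 lower. Median ratio scaling gave 1 lower for LCC over MG. TPM gave 6 lower for LCC over MG and a median of -0.79, against -0.41 for all genes. The analysed names summed to 375295 FPKM in LCC and 288156 FPKM in MG. TPM sets each sum to 1000000, which lowers every LCC level relative to MG. It also makes all values larger, while the pseudocount and filter stayed at 1, so changes of low genes were understated less. How far either effect accounts for the moves was not tested. By 2-fold, LCC over MG had 4 lower with a pseudocount of 5 and 16 with TPM, against 10, and E-Int29-Hi over MG had 3 lower with a pseudocount of 5, against 5. No filter, a filter at 5 FPKM, summed models and every status moved no count of genes past 4-fold by more than 1.5 times. No gene past 4-fold turned sign under the alternatives run. Smaller differences turned under a scaling for Bmpr1a, Tgfb1, Smad4, Id2 and Id3, none of them over 0.22 (log2) as deposited. No replicate could be left out, since each group had 1 library. No paired analysis was possible because the groups hold 1 library each.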

Other observations

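The E-proteins that ID proteins bind were expressed in each library and differed by less than 4-fold between any pair. Tcf3 stood at 22.2 FPKM in LCC, 12.0 FPKM in E-Int29-Hi and 21.1 FPKM in MG, Tcf4 at 23.1, 24.5 and 49.2 FPKM, and Tcf12 at 33.0, 29.6 and 47.5 FPKM in the same order. Summed, the E-protein genes stood at 78.3 FPKM in LCC, 66.0 FPKM in E-Int29-Hi and 118 FPKM in MG, and the 4 Id genes at 161 FPKM in LCC, 221 FPKM in E-Int29-Hi and 225 FPKM in MG.

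Of the SMAD phosphatases and ligases listed, Nedd4l, a ubiquitin ligase that targets activated Smad2 and Smad3, was lowest in LCC, at 7.88 FPKM, against 17.0 FPKM in E-Int29-Hi and 28.6 FPKM in MG. Ctdspl, a small C-terminal domain phosphatase, stood at 3.82 FPKM in LCC, 17.6 FPKM in E-Int29-Hi and 7.87 FPKM in MG. Fkbp1a, which binds type I receptors and holds them inactive, was highest in LCC, at 136 FPKM, against 46.4 FPKM in E-Int29-Hi and 90.8 FPKM in MG. These 3 genes were chosen after their values were seen.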
